A study of Homo sapiens with 6 samples.

Results

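The enzymes that build, sulfate and trim heparan sulfate and chondroitin sulfate were followed in MDA-MB-231 cells that overexpressed the circular RNA *circAAGAB*. A list of 41 genes was taken by symbol from the array annotation, and 39 of them had a named probe set (each had 1) among the 17687 genes named on the array. *NDST2* and *CHPF2* had none and were left out. The list was chosen by measured values, since *NDST4* and *CSGALNACT1* were among the largest differences between the groups on these same arrays. The differences of its members are therefore given as a description. Where members past a p threshold are counted, the count stands beside the share of all probe sets past it. The alternative runs at the end lack that share. Nothing is drawn from the counts.

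MDA-MB-231 is an established human triple-negative breast cancer cell line of mesenchymal type. The 3 arrays labelled *circAAGAB* overexpression (OE) held RNA of cells transfected with a plasmid that makes the circle from exons of *AAGAB*, and the 3 arrays labelled empty vector (EV) held RNA of cells given the plasmid without it. Both groups were collected at 24 h. The study's statistics section speaks of independent experiments for its quantitative data without naming the arrays, and the array labels tie no replicate to a separate culture, so the spread between arrays may in part be technical. All signals below are log2 values after robust multichip averaging (RMA), 1 per probe set and array. Pairs below are OE and EV arrays of equal replicate number. For numbers 2 and 3 that pairing follows the labels alone, since correlations between arrays set only number 1 apart.

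Heparan sulfate and chondroitin sulfate are long sugar chains attached to the core proteins of proteoglycans at the cell surface and in the matrix. Both start from the same linker of xylose, galactose, galactose and glucuronic acid on a serine. The next sugar decides the chain: a glucosamine unit added by EXTL3 opens heparan sulfate, and a galactosamine unit added by CSGALNACT1 or CSGALNACT2 opens chondroitin sulfate. Sulfotransferases in the Golgi then decorate the chain, and the pattern of sulfates sets which growth factors, chemokines and matrix proteins it binds. In tumour cells these chains take part in growth factor signalling, adhesion and invasion.

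The signal of *AAGAB* itself was 10.97, 11.75 and 11.11 on the OE arrays, against 7.71, 7.56 and 7.73 on the EV arrays. The log2 difference was 3.61 (SE 0.22, limma adjusted p = 0.0032), and its probes can read the exons carried by the plasmid. All 7 markers of the cell line (*VIM*, *CD44*, *EGFR*, *AXL*, *CAV1*, *KRT8* and *KRT18*) lay above a background gauge of 4.65, the level under which 95% of 348 olfactory receptor genes fell by their mean signal. *ESR1*, *PGR* and *CDH1*, which mark luminal and epithelial cells, lay below it, as did *PTPRC*, *CD3E* and *HBB* of blood cells, *DCN* and *LUM* of fibroblasts and *PECAM1* of endothelium. *GATA3*, *KRT19*, *CD14*, *COL1A1*, *COL1A2*, *PDGFRA*, *VWF* and *CDH5* lay above it. Array SDs lay between 2.08 and 2.21, and the median difference over all 21448 probe sets was -0.00.

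The promoters of 4 genes are shown because they carry the contrasts described below: *NDST4* and *HS6ST2*, with the largest positive differences and dim signals, and *EXT2* and *CHST11*, which lay well above background with every OE array lower. Each is the 250 bases before the most upstream start of the gene in RefSeq, build GRCh38.p14, written 5′ to 3′ in the direction of the gene, with each CG pair in capitals. That of *NDST4* lies at chr4:115113621-115113870 on the minus strand and that of *HS6ST2* at chrX:132961371-132961620 on the minus strand. That of *EXT2* lies at chr11:44095428-44095677 and that of *CHST11* at chr12:104456698-104456947, both on the plus strand.
*NDST4*: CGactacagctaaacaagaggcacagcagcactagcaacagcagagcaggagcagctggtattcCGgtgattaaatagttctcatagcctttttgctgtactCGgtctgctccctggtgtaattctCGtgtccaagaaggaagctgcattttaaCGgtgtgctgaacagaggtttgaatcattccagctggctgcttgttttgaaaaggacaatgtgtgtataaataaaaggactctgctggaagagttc
*HS6ST2*: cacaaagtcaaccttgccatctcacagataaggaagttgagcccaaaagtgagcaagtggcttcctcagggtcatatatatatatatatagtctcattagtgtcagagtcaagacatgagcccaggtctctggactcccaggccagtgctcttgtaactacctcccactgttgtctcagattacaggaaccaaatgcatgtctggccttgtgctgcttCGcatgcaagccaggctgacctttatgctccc
*EXT2*: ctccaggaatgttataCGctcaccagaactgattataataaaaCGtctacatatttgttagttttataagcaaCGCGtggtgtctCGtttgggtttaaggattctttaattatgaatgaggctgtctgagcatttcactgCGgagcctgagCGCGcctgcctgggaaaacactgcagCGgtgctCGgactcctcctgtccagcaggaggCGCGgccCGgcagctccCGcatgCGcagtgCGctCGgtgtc
*CHST11*: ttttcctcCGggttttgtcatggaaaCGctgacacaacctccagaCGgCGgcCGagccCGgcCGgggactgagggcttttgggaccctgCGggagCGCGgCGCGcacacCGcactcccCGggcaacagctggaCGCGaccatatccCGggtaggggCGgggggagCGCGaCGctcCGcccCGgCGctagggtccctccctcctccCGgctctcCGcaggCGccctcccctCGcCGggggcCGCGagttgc

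The *NDST4* window held 5 CG pairs at a GC content of 45.6%, and the *HS6ST2* window held 1 at 48.0%. The *EXT2* window held 17 at 52.4% and the *CHST11* window 31 at 73.2%. Of the windows shown, those of the dim genes had the fewest CG pairs. Members not shown did not all follow this: above the gauge *EXTL1* held 1 and *NDST1* 4, and below it *CHSY3* held 31. Of the 39 measured members 35 had a promoter entry (*EXT1*, *EXTL3*, *SULF1* and *CSGALNACT1* had none). The median number of CG pairs was 15 (1 to 31) over 6 members below the gauge and 21 (1 to 44) over 29 members above it. Over all genes of the array with an entry, the medians were 6 below the gauge (4068 genes) and 20 above it (10182 genes).

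Letters of well-known motifs were searched in the same windows on both strands. TATAAA, the core of a TATA box, was in 3 of 35 members (8.57%, *EXT2*, *NDST4* and *HPSE*), against 11.2% of 27305 genes. In *NDST4* it began 31 bases before the start, in the run tataaa near the end of the window printed above. TGACTCA, a motif of AP-1, was in 2 members (5.71%, *NDST1* and *CHST14*), against 4.15% of all genes. TGACGTCA, the motif of CREB and ATF factors, was in 4 (11.4%, *B3GAT3*, *HS3ST2*, *HS3ST3A1* and *CHPF*), against 1.75%. GCGTGGGCG, the core motif of EGR1, was in 0 of 35, against 0.714%. These matches describe letters in a window and were not tested.

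Across the 39 members the OE arrays averaged higher than the EV arrays in 15 and lower in 24, where 49.6% and 50.4% of all probe sets were higher and lower. The median log2 difference was -0.07, and the range ran from -0.67 (*CSGALNACT1*) to 0.81 (*NDST4*). Most of the enzymes sat close to 0: 29 of 39 (74.4%) lay within 0.2 of it, as did 74.5% of all probe sets. SEs lay between 0.13 and 0.31. In these bulk samples fewer cells that make an RNA and less of it per cell cannot be told apart.

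A fold of at least 1.5 with an unadjusted limma p under 0.05 was met by 1 member in the higher direction (*NDST4*, where 0.214% of all probe sets met it) and by 1 in the lower direction (*CSGALNACT1*, 0.159%). Those are the genes for which the list was drawn up. Just outside stood *HS6ST2*, 1.44-fold higher in OE cells. After Benjamini-Hochberg adjustment over all probe sets limma called 0 of 39 members (0.00466% of all probe sets, which is *AAGAB* alone). At an unadjusted p under 0.05 limma counted 3 members (2.18% of all probe sets), with the replicate number as a block 5 (6.79%), and the methods' t-test 4 (4.14%). All 3 OE arrays lay above all 3 EV arrays for 1 member (3.87% of all probe sets) and below them for 5 (4.04%).

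**Figure D1:**
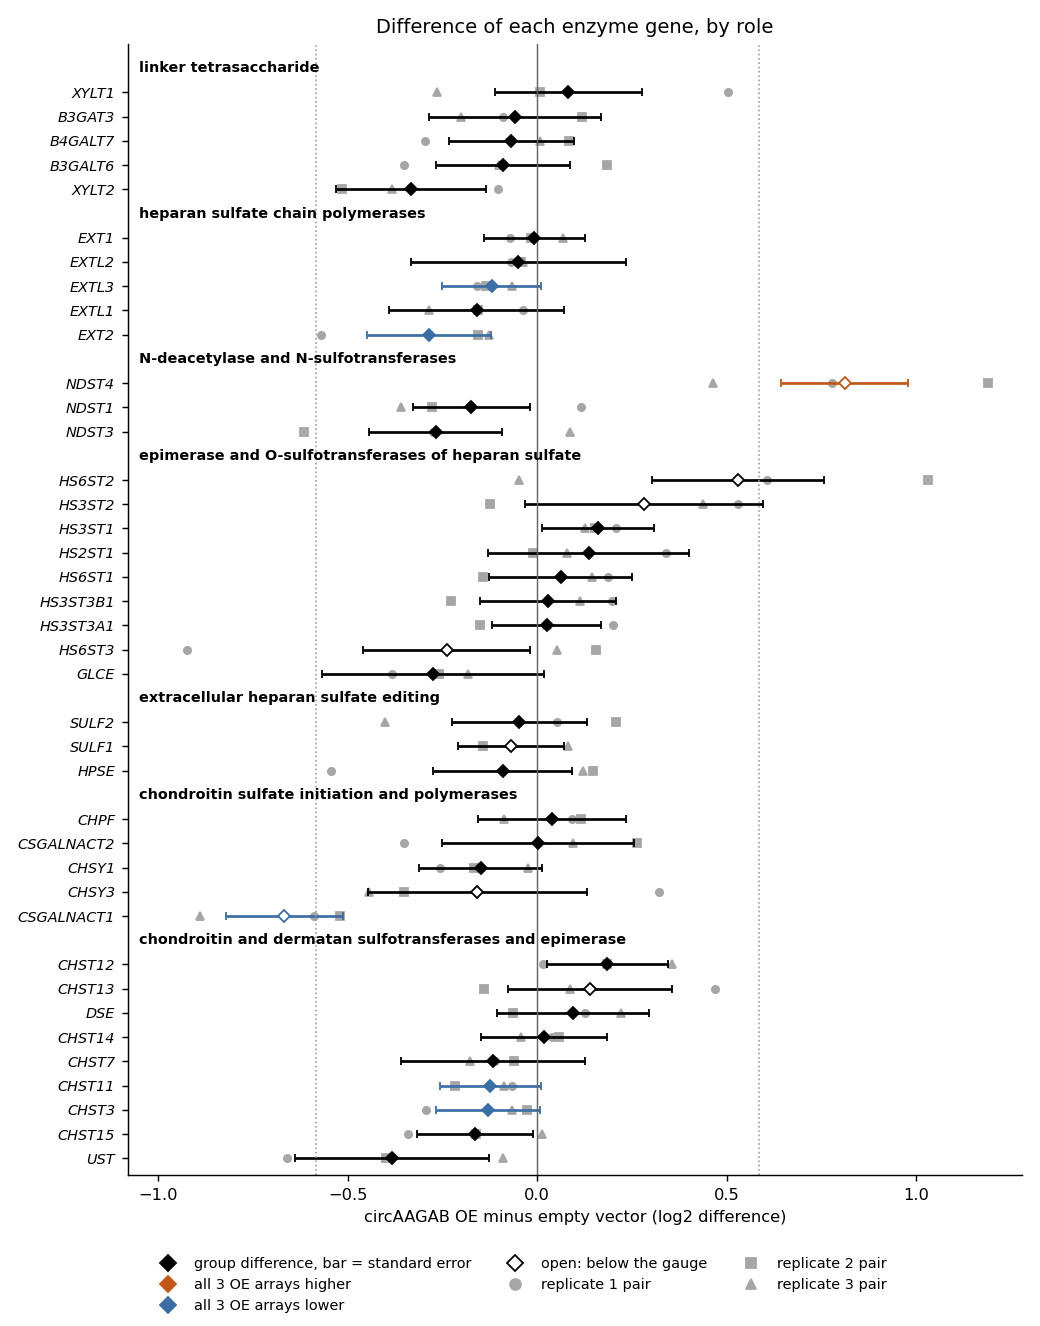
Log2 difference, OE minus EV, of each of the 39 measured enzyme genes in order of role. Diamonds are the group differences with their standard errors (3 arrays a group), open where the mean signal was below the gauge, grey marks are the differences within each replicate number, and dotted lines mark a fold of 1.5. *NDST4* (0.81) and *CSGALNACT1* (-0.67) lie outside those lines, both open, and the largest absolute difference among filled diamonds is that of *UST* (-0.38).

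The common linker is made by 5 enzymes, all with signals above the gauge, of which 1 was higher and 4 were lower in OE cells (median -0.07). *XYLT2*, one of the pair of xylosyltransferases that start the linker, had the largest difference. Its signal was 5.96, 5.48 and 5.35 on the OE arrays, against 6.07, 6.0 and 5.73 on the EV arrays. The groups overlapped through the first OE array, although each OE array lay below the EV array of its own number, and the log2 difference was -0.33 (SE 0.20). It depended on single arrays, at -0.52 without OE replicate 1 and -0.21 without OE replicate 3. The other xylosyltransferase gene, *XYLT1*, had 5.65, 5.14 and 4.98 in OE cells, against 5.14, 5.13 and 5.24 in EV cells (0.08, SE 0.19). *B4GALT7* and *B3GALT6*, which add the galactoses, and *B3GAT3*, which closes the linker with glucuronic acid, differed by -0.07, -0.09 and -0.06.

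The heparan sulfate chain is extended by the complex of EXT1 and EXT2, and EXTL3 acts at its start. All 5 EXT and EXTL genes were lower in OE cells, with differences between -0.28 and -0.01 and a median of -0.12. *EXT2* measured 7.15, 7.60 and 7.53 on the OE arrays, against 7.72, 7.75 and 7.66 on the EV arrays. The groups did not overlap, and the log2 difference of -0.28 (SE 0.16) leaned on the first OE array: without it the difference was -0.15. Its partner *EXT1* was level, at 10.08, 10.13 and 10.22 in OE cells and 10.15, 10.15 and 10.16 in EV cells.

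*EXTL3*, which adds the first glucosamine unit to the linker, was among the tightest members. Its signals were 6.45, 6.48 and 6.49 on the OE arrays, against 6.61, 6.61 and 6.56 on the EV arrays. Every OE array was lower, by a log2 difference of -0.12 (SE 0.13), which is 1.09-fold higher in EV. *EXTL1* and *EXTL2* differed by -0.16 (SE 0.23) and -0.05 (SE 0.28), and both split by replicate number as described below.

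N-deacetylase and N-sulfotransferases remove acetyl groups from glucosamine and put sulfate in their place, the step on which the later sulfations of heparan sulfate largely depend. *NDST4* measured 2.49, 2.77 and 2.37 on the OE arrays, against 1.71, 1.58 and 1.90 on the EV arrays. All OE arrays were higher, the groups did not overlap, and the pairs of equal replicate number differed by 0.78, 1.19 and 0.46. The means were 2.54 ± 0.20 in OE cells and 1.73 ± 0.16 in EV cells (SD, n = 3 each), a log2 difference of 0.81 (SE 0.17) or 1.75-fold. Both means lay below the gauge, and 225 of the 348 olfactory receptor genes (64.7%) had a higher mean signal than *NDST4*.

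The other N-sulfotransferase genes did not share its direction. *NDST1*, the broadly expressed family member, had 7.48, 7.16 and 7.19 in OE cells, against 7.36, 7.44 and 7.55 in EV cells (-0.17, SE 0.15). *NDST3*, which like *NDST4* lies on chromosome 4, had 4.75, 4.37 and 4.77 in OE cells, against 5.02, 4.98 and 4.68 in EV cells (-0.27, SE 0.18). Both overlapped between the groups. Without OE replicate 2 *NDST3* differed by -0.14, and *NDST1* differed by -0.28 without OE replicate 1 and by -0.12 without OE replicate 2. Among the measured genes of the step *NDST4* alone lay below the gauge. *NDST3* was only just above it, at a mean of 4.76, and its OE mean of 4.63 lay below it.

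**Figure D2:**
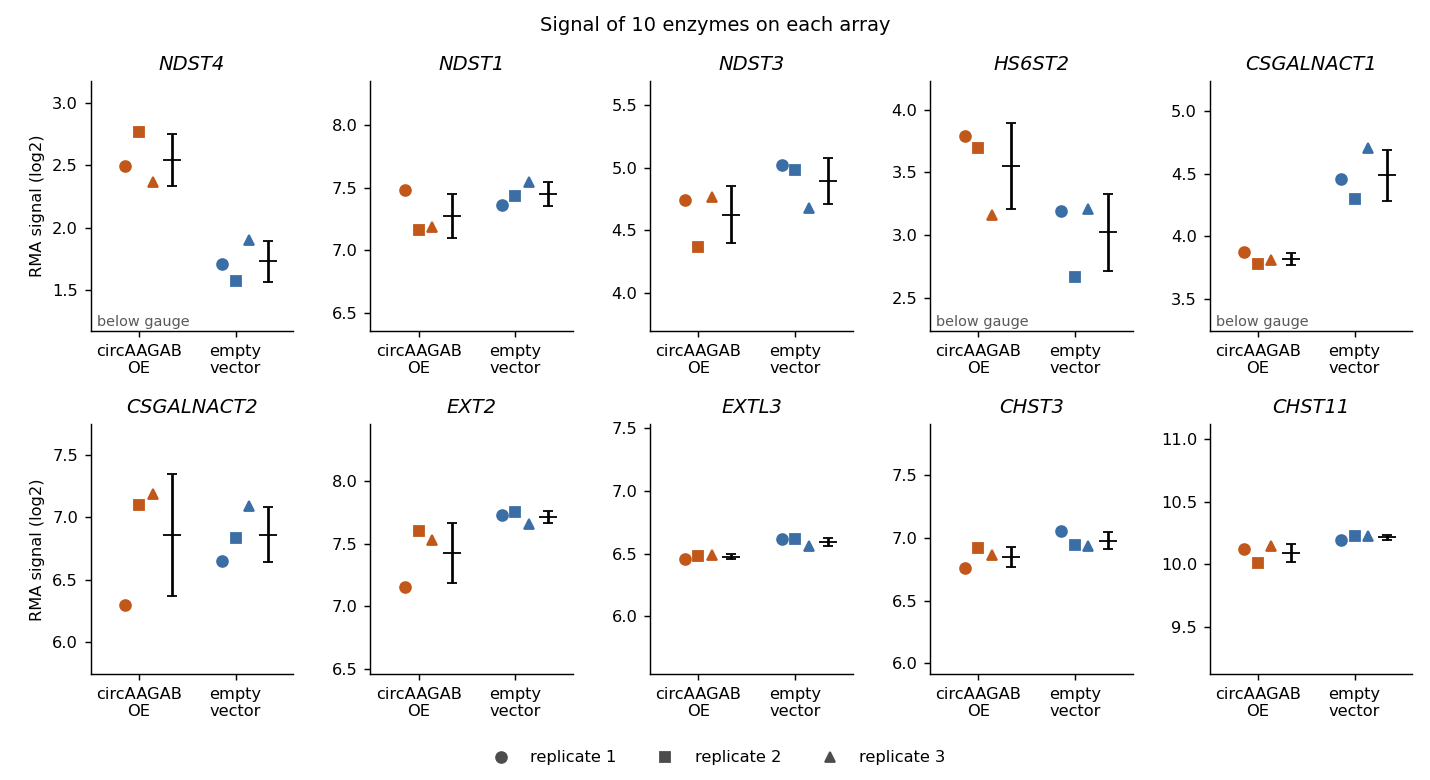
RMA signal (log2) on each array for 10 of the enzyme genes, OE left and EV right, with marks for the replicate number and bars for mean and SD (n = 3). Each panel spans the same number of log2 units. *NDST4*, *HS6ST2* and *CSGALNACT1* are marked as below the gauge of 4.65, and *EXTL3*, *CHST3* and *CHST11* show groups that do not overlap at differences of -0.12 or -0.13.

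The epimerase GLCE turns glucuronic acid into iduronic acid, and 2-O-, 6-O- and 3-O-sulfotransferases add the remaining sulfates. Of these 9 genes 7 were higher and 2 were lower in OE cells, with a median of 0.06. *HS6ST2*, a 6-O-sulfotransferase gene, had the largest difference. It measured 3.79, 3.70 and 3.16 on the OE arrays, against 3.19, 2.67 and 3.20 on the EV arrays. The third OE array lay within the EV arrays, and the pairs differed by 0.61, 1.03 and -0.05. The log2 difference was 0.53 (SE 0.23), at a mean signal exceeded by 94 of the 348 olfactory receptor genes (27.0%).

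The other 6-O-sulfotransferase genes lay to either side of 0. *HS6ST1*, above the gauge, differed by 0.06 (SE 0.19), and *HS6ST3*, just below it, by -0.24 (SE 0.22). *HS6ST3* measured 4.02, 4.65 and 4.67 in OE cells and 4.94, 4.50 and 4.62 in EV cells, so that the pair of number 1 alone differed by more than 0.2. *HS2ST1*, the only 2-O-sulfotransferase gene of heparan sulfate, differed by 0.14 (SE 0.27) and *GLCE* by -0.27 (SE 0.29).

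The 3-O-sulfotransferases add the rarest sulfate, which the binding site for antithrombin needs. *HS3ST1* was higher within all 3 pairs, at 7.28, 7.17 and 7.01 in OE cells and 7.07, 7.02 and 6.88 in EV cells (0.16, SE 0.15). The groups nevertheless overlapped. *HS3ST2*, below the gauge, had 5.13, 4.07 and 4.22 in OE cells and 4.60, 4.20 and 3.78 in EV cells (0.28, SE 0.31). *HS3ST3A1* and *HS3ST3B1*, whose sulfotransferase domains are nearly alike, differed by 0.02 and 0.03, and whether their probes read both RNAs was not checked.

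Outside the cell, SULF1 and SULF2 take 6-O-sulfates off heparan sulfate and heparanase (*HPSE*) cuts the chain. All 3 genes averaged slightly lower in OE cells, by differences between -0.09 and -0.05, but none was lower within all 3 pairs. *HPSE* had the largest difference, with 5.14, 5.68 and 5.65 on the OE arrays, against 5.68, 5.53 and 5.53 on the EV arrays (-0.09, SE 0.18). The first OE array alone was low. Without it the difference was 0.08, and without both arrays of number 1 it was 0.13. *SULF1* lay below the gauge and *SULF2* just above it. *SULF2* was lower through the third OE array alone, with pairs that differed by 0.05, 0.21 and -0.40.

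*CSGALNACT1* encodes an enzyme that adds the first galactosamine unit and so commits the linker to chondroitin sulfate. It measured 3.87, 3.78 and 3.81 on the OE arrays, against 4.46, 4.30 and 4.70 on the EV arrays. The OE arrays were tight and all lower, and the pairs differed by -0.59, -0.52 and -0.89. The means were 3.82 ± 0.05 in OE cells and 4.49 ± 0.20 in EV cells (SD, n = 3 each), a log2 difference of -0.67 (SE 0.16), or 1.59-fold higher in EV. The mean signal was below the gauge, and 33 of the 348 olfactory receptor genes (9.48%) exceeded it.

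The paralog *CSGALNACT2*, well above the gauge, had 6.30, 7.10 and 7.19 in OE cells, against 6.65, 6.84 and 7.09 in EV cells. Its group means were 6.86 in OE cells and 6.86 in EV cells (difference 0.00, SE 0.25), and leaving out single arrays moved the difference between -0.16 and 0.28. The enzymes that lengthen chondroitin showed small differences: *CHSY1* -0.15 (SE 0.16), *CHSY3* -0.16 (SE 0.29, below the gauge) and *CHPF* 0.04 (SE 0.19). *CHSY1* was lower within all 3 pairs. The median of the 5 measured genes of chondroitin initiation and extension was -0.15.

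The sulfotransferases of chondroitin and dermatan sulfate and the dermatan epimerase DSE make a group of 9 genes, 4 higher and 5 lower in OE cells (median -0.12). *CHST11*, which puts sulfate on the 4-O position of galactosamine, measured 10.13, 10.01 and 10.14 on the OE arrays, against 10.19, 10.23 and 10.23 on the EV arrays. *CHST3*, which sulfates the 6-O position, measured 6.76, 6.92 and 6.87 in OE cells, against 7.06, 6.95 and 6.93 in EV cells. In both genes every OE array was lower, with a difference of -0.12 (SE 0.13) for *CHST11* and -0.13 (SE 0.14) for *CHST3*, each 1.09-fold higher in EV. For *CHST3* the gap between the nearest arrays was small, and the difference was -0.09 without OE replicate 1 and -0.05 without both arrays of number 1.

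*UST*, which sulfates the 2-O position of the uronic acid, had the largest difference of the group and of all members whose mean over the 6 arrays was above the gauge, although its OE mean of 4.59 lay below it. Its signals were 4.04, 4.78 and 4.95 on the OE arrays, against 4.70, 5.18 and 5.04 on the EV arrays. The log2 difference was -0.38 (SE 0.26), lower within all 3 pairs, with groups that overlapped. It leaned on the first OE array: without it the difference was -0.11, and without both arrays of number 1 it was -0.24. *CHST12*, a 4-O-sulfotransferase gene like *CHST11*, went the other way, at 7.35, 7.46 and 7.30 in OE cells and 7.34, 7.27 and 6.95 in EV cells (0.19, SE 0.16).

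The remaining genes of the group differed little. *CHST13*, a further 4-O-sulfotransferase gene and the only one of the 9 below the gauge, differed by 0.14 (SE 0.22), and *CHST14*, which sulfates dermatan, by 0.02 (SE 0.17). *CHST7*, a 6-O-sulfotransferase gene, differed by -0.12 (SE 0.24). *CHST15*, which adds a 6-O-sulfate to galactosamine already sulfated at 4-O, differed by -0.16 (SE 0.15). *DSE* differed by 0.09 (SE 0.20).

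The 3 largest differences were those of dim members, meaning members whose mean signal lay below the gauge. Of the 39 members 31 lay above the gauge and 8 (20.5%) below it (*NDST4*, *HS6ST2*, *HS6ST3*, *HS3ST2*, *SULF1*, *CSGALNACT1*, *CHSY3* and *CHST13*), where 31.6% of all probe sets lay below. The median range over the 6 arrays was 1.03 log2 units for the 8 dim members and 0.54 for the other 31. Among all dim probe sets 0.487% met the fold and p in the higher direction and 0.399% in the lower direction. The part of background signal in the *NDST4* and *CSGALNACT1* differences was not tested.

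**Figure D3:**
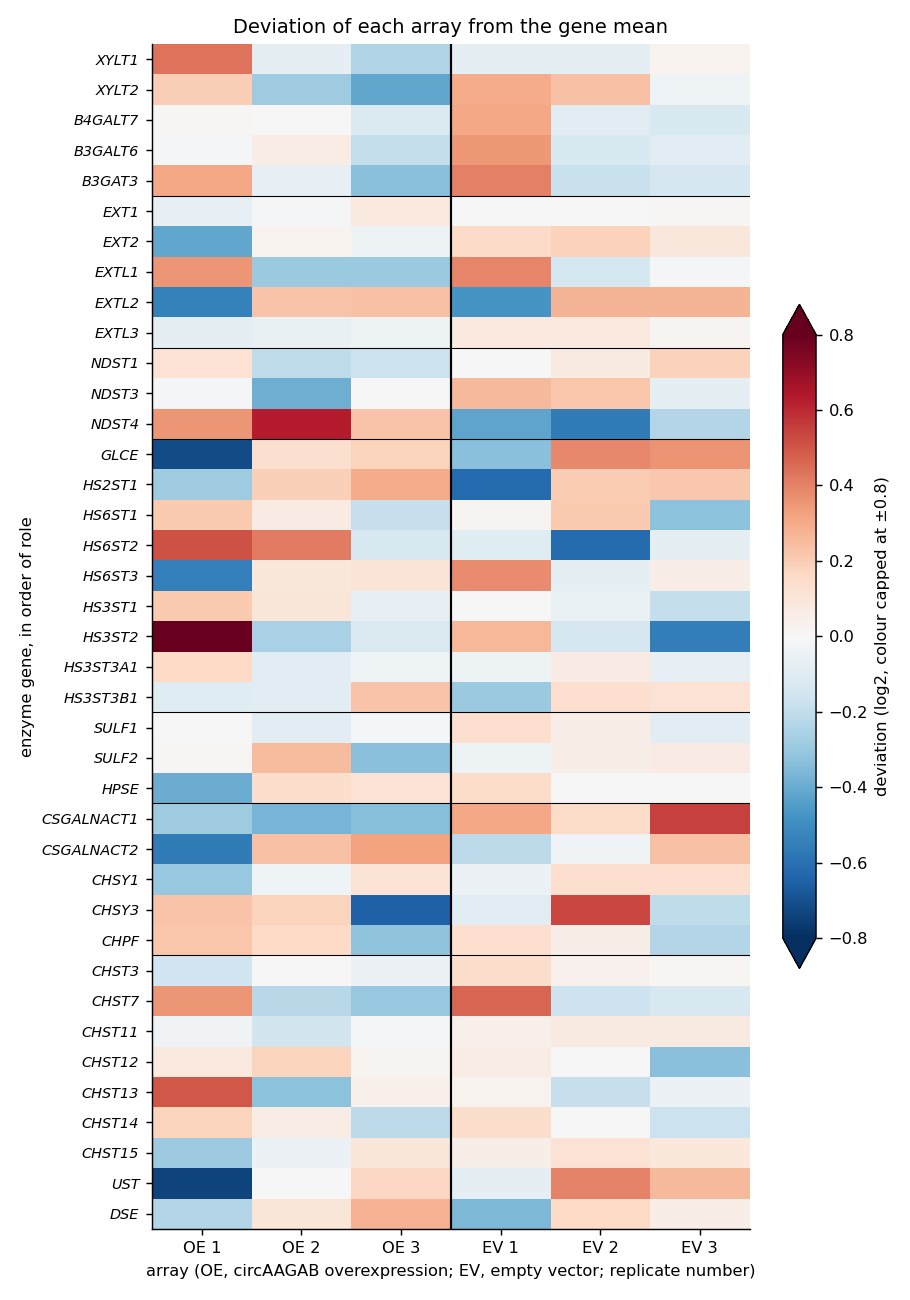
Deviation of each array (columns, 3 OE then 3 EV) from the mean over 6 arrays, in log2 units, for the 39 enzyme genes (rows, in order of role). Red is above the mean and blue below it. *NDST4* is red on the 3 OE arrays and blue on the 3 EV arrays, *CSGALNACT1* the reverse, while *EXTL2*, *GLCE* and *HS2ST1* are blue on both arrays of number 1.

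Over the whole array the replicate number often separated the arrays more than the plasmid did, and among the members somewhat less often. Both arrays of number 1 lay outside the other 4 for 14 of 39 members (35.9%, against 45.6% of all probe sets). Of these 6 were higher on number 1 (*B4GALT7*, *B3GAT3*, *EXTL1*, *HS3ST2*, *CHST7* and *CHST14*, against 26.1% of all probe sets) and 8 were lower (19.5% of all probe sets, *EXTL2*, *GLCE*, *HS2ST1*, *HS3ST3B1*, *CSGALNACT2*, *CHSY1*, *UST* and *DSE*). The difference between number 1 and the others was larger in size than that between OE and EV for 25 of 39 members (64.1%, against 74.4% of all probe sets). No source says what the numbers stand for.

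The values behind this were large beside the group differences. *GLCE* measured 5.82 (OE) and 6.20 (EV) on the arrays of number 1, against 6.66, 6.71 (OE), 6.92 and 6.89 (EV) on the others, a difference of -0.79. *EXTL2* measured 6.04 (OE) and 6.10 (EV) on number 1, against 6.81, 6.81 (OE), 6.85 and 6.85 (EV). Within each number its OE and EV arrays differed by -0.07, -0.04 and -0.04. *HS2ST1* (-0.68), *UST* (-0.62) and *CSGALNACT2* (-0.58) were also lower on number 1. *HS3ST2* (0.80), *CHST7* (0.61), *EXTL1* (0.56) and *B3GAT3* (0.53) were higher there. For *NDST4* and *CSGALNACT1* the difference by number was -0.05 and 0.02.

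**Figure D4:**
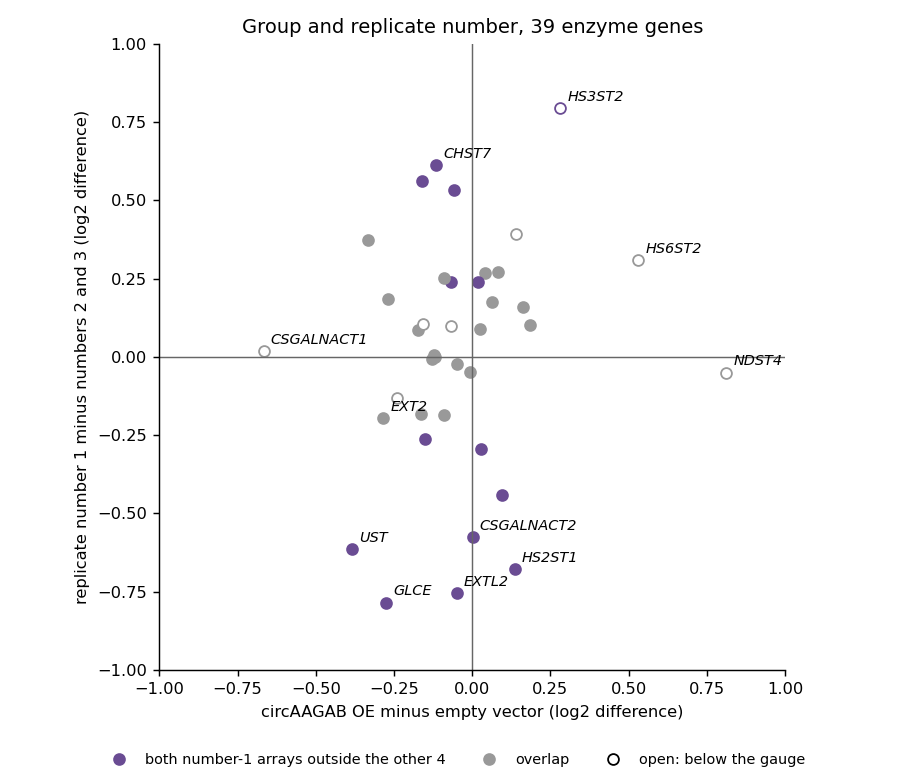
Each of the 39 enzyme genes by its log2 difference between OE and EV (x) and between the arrays of number 1 and those of numbers 2 and 3 (y). Purple marks the 14 genes whose arrays of number 1 both lay outside the other 4, and open circles are below the gauge. *NDST4* and *CSGALNACT1* lie far out on x and near 0 on y, while *GLCE* (-0.79) and *HS3ST2* (0.80) are the extremes on y.

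Compared within each replicate number, the OE array was higher in all 3 pairs for 3 members (*NDST4*, *HS3ST1* and *CHST12*, where 15.4% of all probe sets were) and lower in all 3 for 12 (14.8% of all probe sets). These pairs follow the labels, and another pairing of numbers 2 and 3 was not tried. The 12 were *XYLT2*, *EXT2*, *EXTL1*, *EXTL2*, *EXTL3*, *GLCE*, *CSGALNACT1*, *CHSY1*, *CHST3*, *CHST7*, *CHST11* and *UST*. The median over the members was -0.07 in the pair of number 1, -0.06 in that of number 2 and -0.04 in that of number 3, against 0.02, -0.02 and 0.01 over all probe sets.

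Further genes of the pathway were read from 5 lists of 87 genes, 77 of them measured, of which 35 were higher and 42 were lower in OE cells (median -0.03). By limma 0 met the fold and p in either direction, 0 had an adjusted p under 0.05 and 1 had an unadjusted p under 0.05 (2.18% of all probe sets). Blocking on the replicate number brought that count to 11 (6.79% of all probe sets). OE arrays lay above all EV arrays for 3 genes (3.87% of all probe sets) and below for 7 (4.04%). Of 29 core proteins 14 were higher and 15 lower. The largest difference was that of *DCN*, the gene of decorin, at 4.46, 3.58 and 3.41 in OE cells, against 4.56, 4.02 and 4.05 in EV cells (-0.39, SE 0.29, below the gauge). The syndecans, which carry heparan sulfate through the membrane, were split: *SDC3* (-0.31) and *SDC4* (-0.16) were lower on every OE array and *SDC2* (0.14) was higher, while *SDC1* (-0.27) overlapped. *SRGN*, the gene of serglycin, was higher on every OE array (0.20).

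Of 17 measured genes for the sulfate donor and nucleotide sugars, 8 were higher and 9 lower. *SLC35B4*, a transporter of UDP-xylose and UDP-N-acetylglucosamine, had 6.52, 7.16 and 7.41 in OE cells and 7.40, 7.43 and 7.63 in EV cells (-0.46, SE 0.23). Of 11 further chain enzymes 5 were higher and 6 lower. *FAM20B*, the kinase that phosphorylates the linker xylose, had 5.62, 5.82 and 6.29 in OE cells, against 6.25, 6.40 and 6.56 in EV cells (-0.49, SE 0.20), and was the gene of the lists with an unadjusted limma p under 0.05. In both genes the groups overlapped by 1 OE array.

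Of 15 measured breakdown enzymes 6 were higher and 9 lower. On every OE array 3 were lower (*ARSB*, *HYAL3* and *SUMF1*, where 4.04% of all probe sets were), and nothing is drawn from that count. *HYAL3*, of the hyaluronidase family, had 4.53, 4.21 and 4.04 in OE cells, against 4.89, 4.56 and 4.53 in EV cells (-0.40, SE 0.18, below the gauge). Of 5 measured genes of hyaluronan, the unsulfated relative of these chains, 2 were higher and 3 lower. *CEMIP*, needed for hyaluronan breakdown, had 6.12, 6.22 and 6.60 in OE cells, against 6.61, 6.64 and 6.88 in EV cells (-0.40, SE 0.18), without overlap.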

How the data were processed

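RNA of MDA-MB-231 cells was measured on 6 Clariom S arrays, 3 of *circAAGAB* overexpression and 3 of empty vector. The authors amplified and labelled the RNA, scanned the arrays and deposited log2 values after RMA, which were used unchanged. The software version is not given in the sources used. Because RMA equalizes the distributions of the arrays, a shift of the whole transcriptome would be hidden. Arrays give no read depth, and the small number of arrays limits the precision. Of 21448 probe sets 17709 were named through the platform annotation updated with RefSeq symbols.

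The comparison used the moderated test of limma 3.58.1 (R 4.3.3, two-sided, without covariates), and p-values were adjusted over the 21448 probe sets by the Benjamini-Hochberg method. The gauge was the 95th percentile of olfactory receptor genes. Deviations from the group means correlated at 0.60, 0.19 and 0.55 between OE and EV arrays of equal number, all over 0.1, the limit taken for pairing. Number 1 stood apart. Numbers 2 and 3 were not separated from each other, since OE 2 with EV 3 (0.29) and OE 3 with EV 2 (0.25) exceeded the 0.19 of number 2. The pairs of numbers 2 and 3 therefore follow the labels alone. A block on the number was an alternative. Genes described in full were *NDST4*, *CSGALNACT1* and their paralogs, members past a fold of 1.5 at an unadjusted p under 0.05, members whose groups did not overlap, and the largest difference in each role or, for the other lists, in each list. *AAGAB* served as the check of the transfection. Members and lists were chosen with earlier results of these data known. The script was tested on simulated data. Alternatives were each array left out, both arrays of number 1 left out, quantile normalization, the methods' t-test, array weights, dim probe sets left out, the mean of a gene's probe sets and other gauges.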

Additional observations from a re-analysis of the deposited data

How the results depend on the processing

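No member passed an adjusted p under 0.05 in limma or in any alternative run (lowest adjusted p 0.24, with array weights), and *NDST4* stayed positive and *CSGALNACT1* negative in each alternative that kept them. With array weights 2 members in place of 1 met the fold of 1.5 and unadjusted p under 0.05 in the higher direction. Of the other lists 1 gene met them in each direction in place of 0. At an unadjusted limma p under 0.05 alone that run counted 8 members, 2 higher and 6 lower, in place of 3. Its weights ran from 0.20 (OE replicate 1) to 10.1 (EV replicate 2). With dim probe sets left out 31 members remained, of which 0 met the fold and p in either direction and 0 lay above without overlap, since *NDST4* and *CSGALNACT1* are both dim. Without both arrays of number 1, groups of 2 overlap less often by construction: 5 members lay above and 13 below in place of 1 and 5. The median difference was then -0.043 in place of -0.07. The shares of all probe sets in these runs are not given, so nothing is drawn from the counts.

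Leaving out 1 array at a time gave a median between -0.12 and -0.047, 1 to 2 members meeting the fold and p in the higher direction (2 without OE replicate 3) and 0 to 1 in the lower direction. The 0 came without EV replicate 3, where *CSGALNACT1* differed by -0.56. Members without overlap numbered 1 to 5 above and 5 to 9 below, where a group of 2 again overlaps less often by construction. Of the other lists 0 to 2 genes met the fold and p in the lower direction (2 without OE replicate 1 or OE replicate 3). The shares of all probe sets in these runs are not given either, so nothing is drawn from the counts. With 1 array left out *NDST4* lay between 0.70 and 0.90 and *HS6ST2* between 0.35 and 0.73. With the replicate number as a block, the counts meeting the fold and p stayed at 1 and 1 and the median at -0.07. The cause of these shifts was not tested. Among members described in full, leaving out OE replicate 1 moved *UST* to -0.11, *EXT2* to -0.15, *XYLT2* to -0.52 and *HPSE* to 0.08, and leaving out both arrays of number 1 moved *NDST1* to -0.32. The block, the methods' t-test, the mean of a gene's probe sets and the removal of other dim probe sets cannot change the difference of a member by construction.

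With 3 arrays a group and no detection calls, differences of dim members cannot be told from background, and the gauge is itself a choice: 31 members lay above it at the 95th percentile, 36 at the 90th and 27 at the 99th.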
